A study of Mus musculus with 4 samples.

Results

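The genes examined were the 5 mouse gene copies that give rise to the microRNAs miR-7 and miR-128: Mir7-1, Mir7-2 and Mir7b for miR-7, and Mir128-1 and Mir128-2 for miR-128. They were taken by gene symbol through the gene ID of each row, and all 5 had a row among the 643 miRNA genes of a table of 2976 genes. The families were selected on their levels in these same 4 libraries, so the levels are given as a description, with no test of any difference. The libraries were small RNA from cells sorted by red fluorescence out of CD1 embryos at E10.5, labelled as peri-wolffian duct stroma that expresses Tbx18. The wolffian duct is the tube from which the ureteric bud grows. All 4 carried Tbx18-Cre and CAG-tdTomato, in which the Tbx18 promoter drives the recombinase and the reporter then marks those cells and their descendants. There was 1 group, described as wild type in the labels although both transgenes are present, and no control population or treatment. Separate embryos or pools are not named for the libraries, so each SD measures only the spread between these 4 libraries, which may be technical.

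MicroRNAs are cut from hairpin precursors, and 1 arm of the hairpin is loaded into an Argonaute protein, where the seed near its 5′ end pairs with target messenger RNAs. miR-7 is an ancient animal microRNA best known from neurons and endocrine cells such as those of the pancreatic islet, and it is bound by the circular RNA Cdr1as and turned over through the long noncoding RNA Cyrano. miR-128 is best known as a brain-enriched microRNA of neurons.

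The mature sequences are shown because they set which copies can be told apart by a read. Each runs 5′ to 3′ with its seed, bases 2 to 8, in capitals, and comes from RefSeq (GRCm38.p6). miR-27b-3p, made by another gene, is added because its seed overlaps that of miR-128-3p.
miR-7a-5p: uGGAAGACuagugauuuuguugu
miR-7b-5p: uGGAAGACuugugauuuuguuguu
miR-128-3p: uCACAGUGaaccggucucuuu
miR-27b-3p: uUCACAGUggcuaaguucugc
The miR-7a and miR-7b arms share the seed GGAAGAC and differ by A10U, with miR-7a's base first and positions counted from 1 at the 5′ end, over the 23 positions that both have. Among the RefSeq arms of the table's miRNA genes, GGAAGAC occurred as a seed in the 3 miR-7 genes and in no other, and CACAGUG in the 2 miR-128 genes and in no other. The first 8 bases of miR-128-3p are also found in miR-27b-3p, where they begin 1 base later, so the seeds of miR-128 and miR-27 overlap without being equal.

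The hairpins are shown because reads were assigned to these precursor genes and not to mature arms. Capitals mark the miR-7a-5p, miR-7b-5p or miR-128-3p arm.
Mir7-2: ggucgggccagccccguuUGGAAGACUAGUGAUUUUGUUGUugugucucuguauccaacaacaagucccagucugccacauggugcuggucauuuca
Mir7-1: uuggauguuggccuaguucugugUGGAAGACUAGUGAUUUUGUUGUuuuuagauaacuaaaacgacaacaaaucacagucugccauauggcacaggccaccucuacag
Mir7b: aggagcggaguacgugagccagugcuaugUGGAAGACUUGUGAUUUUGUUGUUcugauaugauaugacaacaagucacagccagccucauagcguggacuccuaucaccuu
Mir128-1: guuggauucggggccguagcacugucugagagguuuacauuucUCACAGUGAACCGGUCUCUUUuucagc
Mir128-2: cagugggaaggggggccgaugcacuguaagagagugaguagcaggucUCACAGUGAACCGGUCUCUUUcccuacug
Mir7-1 and Mir7-2 have an identical stretch of 24 bases, which covers the whole of miR-7a-5p, and Mir128-1 and Mir128-2 have one of 23 bases, which covers the whole of miR-128-3p. A read of either mature sequence therefore fits both copies, and the assignment of such reads is not stated in the labels or the table, so each split between copies is uncertain. Mir7b shares no more than 14 bases in a row with either other miR-7 gene, and a full-length miR-7b read can be told from miR-7a. On the opposite arm the miR-7a copies do differ, with A7G, A10C and U21C between miR-7a-1-3p and miR-7a-2-3p, but the table does not separate arms.

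The name "intronic" held for 3 of the 5 genes in the GENCODE vM21 annotation. Mir7-1 (chr13:58392779-58392886, minus strand, GRCm38) lies in an intron of Hnrnpk, which encodes an abundant RNA-binding protein, on the same strand. That intron is 719 or 779 bp long depending on the transcript, and no annotated exon overlaps the hairpin. Mir128-1 (chr1:128202361-128202430, plus strand) lies in a 14107-bp intron of R3hdm1, intron 19 of a transcript with 27 exons. Mir128-2 (chr9:112118636-112118711, minus strand) lies in an intron of Arpp21, which encodes a cyclic AMP-regulated phosphoprotein, and both miR-128 genes run on their host's strand. Mir7-2 (chr7:78888277-78888373, plus strand) overlapped no annotated gene and lies 7481 bp from Aen. Mir7b (chr17:56242988-56243098, plus strand) likewise overlapped none, 183 bp past the end of the noncoding gene AC026385.1 and 13712 bp from Fem1a. The 3 intronic genes together made up 59.4%, 43.8%, 40.6% and 51.4% of the 5-gene sum in libraries 1 to 4, a mean of 48.8% ± 8.39 (SD, n = 4). No other row of the table overlapped a member.

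Levels are in TPM, the deposited unit, a length-corrected share of the whole library, so a change in the rest of a library also moves them. The reads recovered for all miRNA genes numbered 883201, 1087240, 978210 and 146255 in libraries 1 to 4. miRNA genes summed to 42494, 65478, 61708 and 16399 TPM, and library 4 was lowest in both. Each member was above 1 TPM in every library, a threshold that 213 of the 643 miRNA genes met (33.1%), and since the families were taken for their levels this adds nothing about them. Markers of the labelled cell type were present in part: 4 of 6 stroma and smooth muscle miRNA genes were detected in all libraries, with a summed level of 331 to 2373 TPM, while Mir199a-2 and Mir214 were listed at 0. Mir199a-1, the other copy of miR-199a, averaged 764 TPM, and whether those zeros come from read assignment was not tested. miRNA genes known from other cell types also had signal, with 31.3 to 86.8 TPM for 5 epithelial genes, 251 to 528 TPM for the endothelial Mir126a and 122 to 342 TPM for 6 striated muscle genes. Of the 5 epithelial genes 4 were detected in all libraries, as was Mir126a. Detection in all libraries thus did not set the stroma list apart from the epithelial and endothelial lists. Mir206 alone made up most of the muscle sum, at a mean of 191 TPM, while 2 of the 6 were detected in all libraries and Mir1a-2 was listed at 0. Erythroid genes summed to 0.878 to 11.9 TPM and white blood cell genes to 3.61 to 9.19 TPM, with Mir223 at 0. In sorted bulk cells, fewer cells of a type and less RNA per cell cannot be told apart. Whether other cells gave these values, and their part in the members' levels, was not tested.

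Mir7-2, 1 of the 2 copies that encode miR-7a, had the highest mean of the 5. It stood at 179, 670 and 567 TPM in libraries 1 to 3 and 175 TPM in library 4, a mean of 398 ± 258 TPM (SD, n = 4), from 4452, 13358, 10540 and 1829 reads. Libraries 2 and 3 were high and libraries 1 and 4 low, with 3.83-fold between the extremes. By mean TPM it ranked 28 among the miRNA genes, and by library it ranked 54, 24, 23 and 23. As a share of all miRNA TPM, library 4 was no longer low, with 0.422%, 1.02%, 0.919% and 1.07%, which left library 1 alone at the bottom.

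Mir7-1, the intronic miR-7a copy in Hnrnpk, ran at 25.2, 97.02, 111 and 29.9 TPM, a mean of 65.8 ± 44.6 TPM (SD, n = 4). Its pattern matched that of Mir7-2 in form, high in libraries 2 and 3 and low in the other two, although its highest value was in library 3. In miRNA share it was at 0.0593% in library 1 against 0.148%, 0.180% and 0.182% in the others. Its rank by mean was 87, on 696, 2154, 2298 and 348 reads.

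Mir7b, the sole source of miR-7b, was the lowest member, at 8.56, 24.8, 10.2 and 4.01 TPM, a mean of 11.9 ± 9.02 TPM (SD, n = 4) and rank 163. Library 2 stood above the rest, and without it the mean was 7.57 TPM, 1.57 times lower. Here library 3 was not high, unlike in both miR-7a copies. The library 4 value rests on 48 reads. A level of 3 reads for a hairpin of 97 bases corresponded to between 0.121 and 0.287 TPM in these libraries, so all values of Mir7b lay well above the counting limit.

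**Figure D1:**
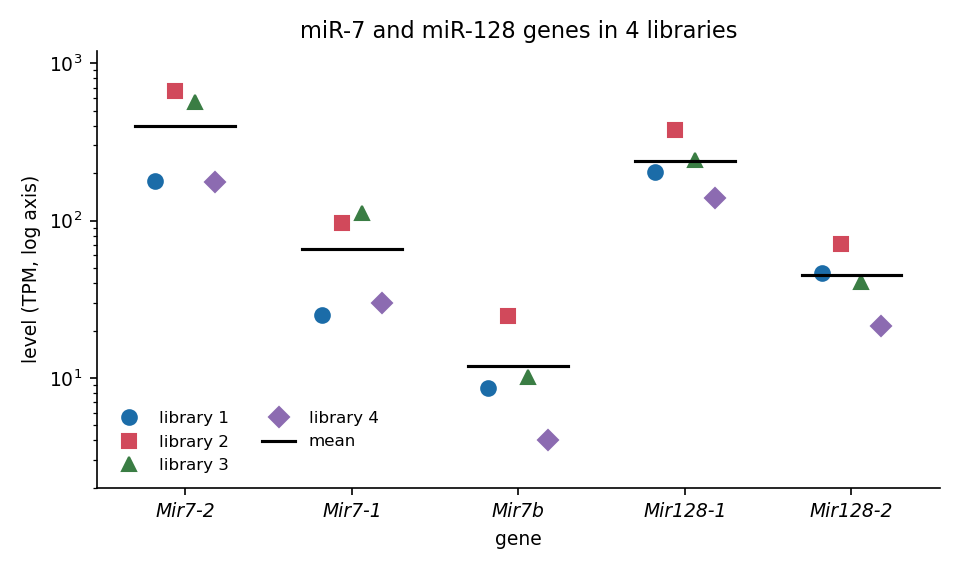
Level of each gene in TPM (log axis) in each of the 4 libraries, with points for libraries and a bar for the mean. Mir7-2 and Mir128-1 lie highest, at means of 398 and 239 TPM, and Mir7b lowest at 11.9 TPM.

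Mir128-1, the copy in R3hdm1, was the higher miR-128 gene, at 203, 374 and 242 TPM in libraries 1 to 3 and 138 TPM in library 4. Its mean was 239 ± 99.7 TPM (SD, n = 4), rank 39, from 3636, 5389, 3249 and 1043 reads. Library 2 was highest and library 4 lowest in TPM, but library 4 had the highest miRNA share, at 0.843% against 0.478%, 0.572% and 0.392%. The order of libraries for this gene therefore depended on which total the reads were set against.

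Mir128-2, the copy in Arpp21, ran at 46.5, 70.7, 40.9 and 21.5 TPM, a mean of 44.9 ± 20.3 TPM (SD, n = 4) and rank 105. Library 2 was again highest and library 4 lowest. In miRNA share the values were 0.109%, 0.108%, 0.0663% and 0.131%, with library 3 the low one. Both miR-128 genes varied less over libraries than the miR-7 genes, with coefficients of variation of 41.6% and 45.2% for Mir128-1 and Mir128-2 against 64.9%, 67.7% and 75.8% for Mir7-2, Mir7-1 and Mir7b. Over the 170 miRNA genes with a mean of at least 10 TPM the median was 58.8%. After each level was taken as a share of miRNA TPM, the coefficients came to 34.2% and 26.1% for the miR-128 genes and 34.6%, 40.4% and 37.9% for the miR-7 genes, beside a median of 37.6%. The families lay closer together on that scale.

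**Figure D2:**
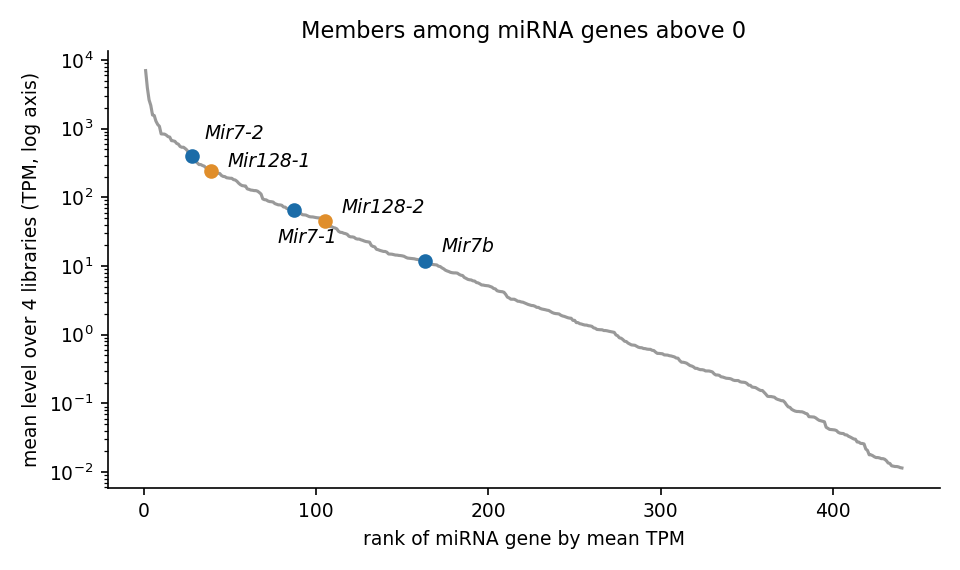
Mean level in TPM (log axis) of the 440 miRNA genes above 0, ordered by rank, with the 5 members as points. The members span ranks 28 to 163.

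In the order of mean levels, Mir7-2 stood above Mir128-1, then Mir7-1, Mir128-2 and Mir7b. The log2 ratio, with 1 TPM added to each value, was 0.56 ± 0.61 (SD, n = 4) for Mir7-2 over Mir128-1, above 0 in 3 of 4 libraries. In TPM these neighbours overlapped, and their order was not the same in every library. In reads, without division by length, the same ratio was 1.03 ± 0.61 and above 0 in all 4. Mir7-2 was thus the higher by the mean in both units. Only the order in library 1 turned on the division by length. Mir128-1 lay 2.05 ± 0.76 above Mir7-1 in 4 of 4 libraries. Mir7-1 over Mir128-2 was at 0.37 ± 0.94, again above 0 in 3 of 4, and these neighbours also overlapped. Mir128-2 lay 1.97 ± 0.37 above Mir7b in 4 of 4. In both overlapping pairs, library 1 was the one in which the miR-7 gene was lower in TPM; in reads this held for Mir7-1, at -0.38, and not for Mir7-2, at 0.29.

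Summed over copies, miR-7 was at 213, 792, 688 and 209 TPM, a mean of 475 ± 308 TPM (SD, n = 4). Summed miR-128 was at 249.6, 445, 283 and 159.7 TPM, a mean of 284 ± 119 TPM (SD, n = 4). The ranges overlapped, and miR-7 was the higher family in libraries 2, 3 and 4. As shares of miRNA TPM the families took 1.02% ± 0.355 and 0.675% ± 0.219 (SD, n = 4), and both together took 1.09%, 1.89%, 1.57% and 2.25% in libraries 1 to 4.

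The log2 ratio of summed miR-128 to summed miR-7 was 0.23, -0.83, -1.28 and -0.38, a mean of -0.57 ± 0.64 (SD, n = 4). The mean was smaller in size than its SD, which measures the spread of single libraries and not the uncertainty of the mean. Set in reads, without division by hairpin length, the ratio was -0.25, -1.31, -1.76 and -0.87, below 0 in all 4 libraries with a mean of -1.05 ± 0.65. The miR-128 hairpins are short, at 70 and 76 bases against 97, 108 and 111 for miR-7, so the order of the families in library 1 turned on the division by length.

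**Figure D3:**
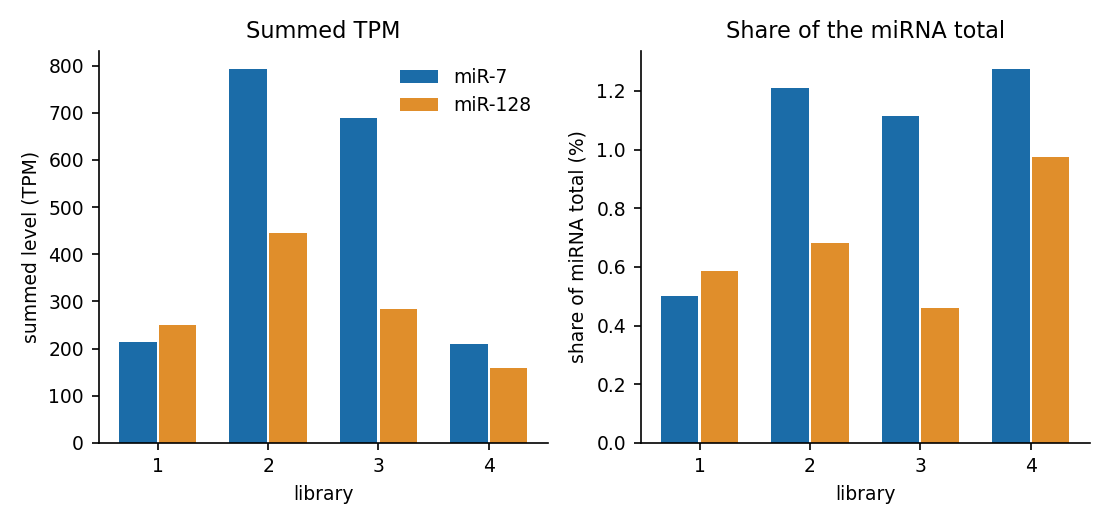
Bars give the sum of the miR-7 and of the miR-128 gene copies in each library, in TPM (left) and as a percent of the summed TPM of all miRNA genes (right). miR-7 reached 792 and 688 TPM in libraries 2 and 3, while in library 1 miR-128 was higher, at 249.6 against 213 TPM.

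Each family had 1 dominant copy, with the caution that mature reads fit more than 1. Mir128-1 exceeded Mir128-2 by 4.37-, 5.29-, 5.92- and 6.43-fold in TPM in libraries 1 to 4, a log2 ratio of 2.41 ± 0.23 (SD, n = 4) with 1 TPM added. It held 84.4% ± 2.25 of the miR-128 TPM (SD, n = 4). Of the family's reads it held 80.1% in library 1 (95% Clopper-Pearson interval 78.9 to 81.2) and 85.6% in library 4 (83.5 to 87.5), with libraries 2 and 3 between. The intervals of libraries 1 and 4 did not overlap, but they cover counting error only, treat amplified reads as independent and leave out every other difference between libraries.

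Mir7-2 exceeded Mir7-1 by 7.12-, 6.90-, 5.11- and 5.85-fold, a log2 ratio of 2.60 ± 0.22 (SD, n = 4). Its part of the miR-7a reads was 86.5% (85.5 to 87.4), 86.1% (85.6 to 86.7), 82.1% (81.4 to 82.8) and 84.0% (82.4 to 85.5). Libraries 1 and 2 had like shares and library 3 the lowest. The dominant miR-7a copy was the one outside any annotated gene, whereas both miR-128 copies are intronic.

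Mir7b moved most against its relatives. Mir7-2 exceeded it by 21.0-, 27.0-, 55.8- and 43.6-fold, a log2 ratio of 4.94 ± 0.61 (SD, n = 4). Of the miR-7 reads Mir7b held 4.51% (3.97 to 5.10) in library 1 and 3.53% (3.25 to 3.82) in library 2, against 1.65% (1.44 to 1.89) in library 3 and 2.16% (1.59 to 2.85) in library 4. The share was thus lower in libraries 3 and 4 than in 1 and 2, with no overlap of intervals between those pairs, which again cover counting error only.

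**Figure D4:**
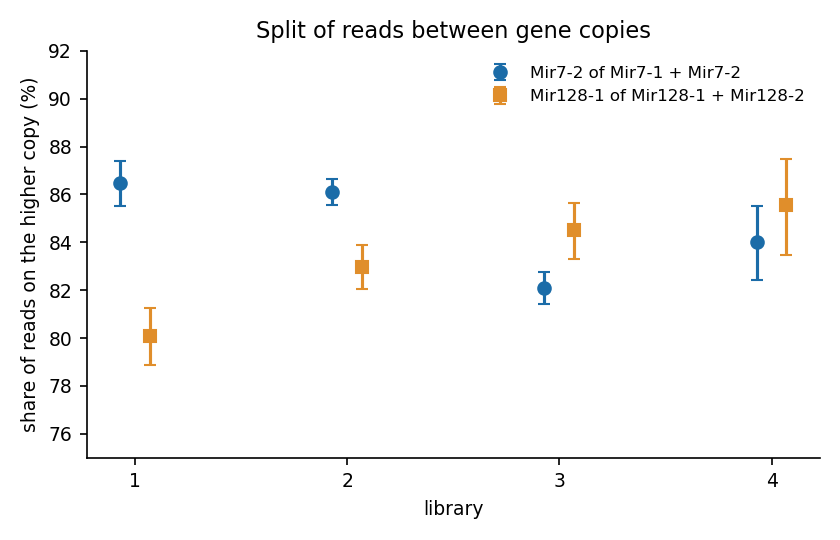
Percent of family reads on Mir128-1 (of both miR-128 copies) and on Mir7-2 (of both miR-7a copies) in each library, with 95% Clopper-Pearson intervals as bars; the axis starts at 75. Mir128-1 was lowest in library 1 at 80.1% and Mir7-2 lowest in library 3 at 82.1%.

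Dominance of 1 copy was common in the table. Among the 22 multicopy miRNA names whose copies together averaged 10 TPM or more, the higher copy held a median of 93.4%, and in 13 names it held over 90%. miR-7a, at 85.8% on its higher copy by mean TPM, had 13 names above it and 8 below, and miR-128, at 84.2%, had 16 above and 5 below. In 18 of the 22 names every copy was above 0, as in both families here. In Mir1a, Mir199a and Mir92 the higher copy held 100% because the other copy was listed at 0. The assignment of reads that fit more than 1 copy is not given, so these shares are uncertain too.

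The pattern over the 4 libraries was compared with that of 169 other miRNA genes with a mean of at least 10 TPM, by the root mean square difference of log2(TPM + 1) centred on each gene's own mean. With 4 points that share depth and scaling, likeness is a description only. Nearest to Mir7-2 were Mir467a-9 at 0.17, Mir7-1 at 0.19 and Mir218-1 at 0.24, where the median gene lay at 0.77. Nearest to Mir7-1 were Mir7-2, Mir218-1 and Mir18, at 0.19, 0.21 and 0.21. The miR-7a copies thus had each other among their nearest genes, and the part of reads that fit both copies in this was not tested.

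Mir7b was only the 45th nearest gene to Mir7-2, at 0.53, and the 63rd to Mir7-1, at 0.71. Its own nearest genes were Mir218-2, Mir143 and Mir330, at 0.20, 0.20 and 0.22. For Mir128-1 they were Mir381 and Mir676, both at 0.07, and Mir370 at 0.11, with Mir128-2 in place 11 at 0.20. For Mir128-2 they were Mir450-1, Mir411 and Mir493, at 0.08, 0.09 and 0.10. The miR-128 copies were therefore close in pattern but each had closer genes elsewhere.

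Both families are known from neural tissue, so other neural miRNAs were set beside them. Of 17 genes listed, 16 had a row and 4 were detected in every library (25.0%, against 33.1% of all miRNA genes), with Mir124a-1 at 0. The median of the gene means went the other way, at 2.55 TPM for the list against 0.316 TPM for all miRNA genes. The list summed to 692, 881, 4131 and 398 TPM. Library 3 stood apart through Mir9-3, a copy of the neural progenitor miRNA miR-9, at 345, 35.2, 2861 and 78.3 TPM, a mean of 830 ± 1361 TPM, or 153 TPM without library 3, an omission chosen after seeing the data. Mir219a-2, of a miRNA known from oligodendrocytes, was at 2.06, 0.752, 182 and 16.5 TPM, with a mean of 50.2 ± 87.8 TPM and 6.45 TPM without library 3.

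The miR-7 and miR-128 genes did not follow those 2. Library 3 stood at 1.66 times the mean of the other libraries for Mir7-2, 2.19 for Mir7-1, 0.814 for Mir7b, 1.01 for Mir128-1 and 0.885 for Mir128-2. Of the 15 neural genes above 0, 11 had their highest TPM in library 3, against 1 of the 5 members and 192 of the 440 miRNA genes above 0 (43.6%). Mir218-1, a motor neuron miRNA gene whose host is a Slit gene, was at 319, 804, 1020 and 291 TPM, high in libraries 2 and 3 as Mir7-2 was. Mir218-2 was at 11.4, 26.7, 15.9 and 4.55 TPM, highest in library 2 as Mir7b was. A neural part in the members' levels was not tested.

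**Figure D5:**
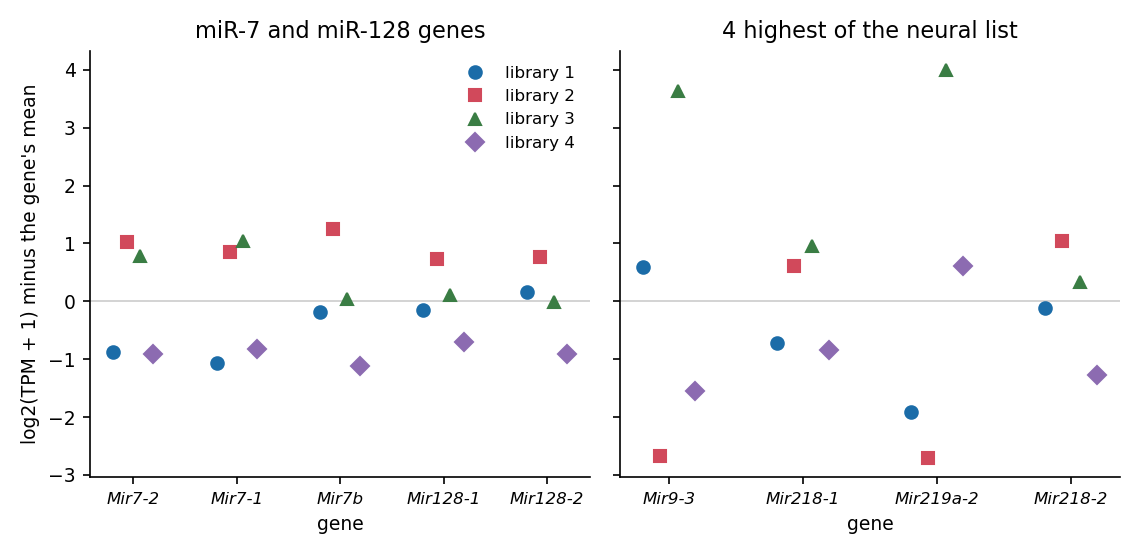
log2(TPM + 1) in each library minus the gene's mean over libraries, for the 5 members (left) and the 4 highest genes of the neural list (right). Mir9-3 and Mir219a-2 peak in library 3, at 2861 and 182 TPM. Of the 5 members 4 are highest in library 2, as are 144 of the 440 miRNA genes above 0.

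Mir375, the islet and endocrine miRNA often named with miR-7, was low, at 17.0, 10.6, 6.52 and 15.1 TPM, a mean of 12.3 ± 4.69 TPM (SD, n = 4). In TPM it was lowest in library 3 and highest in library 1, and as a share of miRNA TPM it was lowest in library 3 and highest in library 4, at 0.0106% and 0.0919%. Of the RNAs known to act on miR-7, Mir671, which directs the cleavage of Cdr1as, was listed at 0 in all libraries, as was Cdr1os, the linear antisense gene at that locus. Mir671 overlaps the gene Chpf2 in RefSeq, and how reads over overlapping genes were counted is not given. Its listed 0 is therefore not read as absence. Oip5os1, the gene of Cyrano, was at 0.0227, 0.00314, 0.0303 and 0.0538 TPM. These long RNAs are poorly sampled by a small RNA library, and the circular RNA itself was not analysed here.

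The relatives of miR-128 by overlapping seed were present too. Mir27b was at 197, 237, 229.9 and 19.7 TPM, a mean of 171 ± 102 TPM (SD, n = 4), and Mir27a at 16.0, 26.1, 15.4 and 6.08 TPM, a mean of 15.9 ± 8.16 TPM. Mir27b was close to Mir128-1 in libraries 1 and 3 but well below it in library 4, and spanned 12.1-fold between its highest and lowest library. Mir128-1 spanned 2.71-fold over the same libraries.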

How the data were processed

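Small RNA of sorted cells was sequenced as single reads of 75 bp in 4 libraries of 1 group. Per the labels' protocols, total RNA was taken with miRNeasy Micro and libraries with the NEBNext Small RNA kit. The deposited values are TPM per gene from the authors. Per the submitters' processing notes limma was used and the genome was GRCm38 (mm10). The aligner, the counter and how multi-mapping reads were handled: not given in the sources used here. Rows were joined by gene ID to RefSeq (GRCm38.p6): 2541 matched and 435 did not. Reads were recovered by multiplying TPM by gene length and dividing by the value of 1 read in that library, and 100% of nonzero miRNA values came out whole within 0.01. The table's TPM summed to 4.94%, 7.22%, 7.11% and 2.33% of the scale. The members and lists were chosen with earlier results of these data known. Genes named were the members, seed relatives with a mean of at least 1 TPM, the 4 highest genes of the neural list, the endocrine and circuit lists, and the 3 genes nearest in pattern to each member. Beyond this rule, single genes of the marker and neural lists and some multicopy names were given with their values known. No test of a difference was made and no count model was fitted; Dixon's criterion was used only to find library values that stand apart. Read recovery was checked on simulated counts and the pattern distance on made-up values, and the other calculations were not checked in this way. The simulation used the same value of 1 read that the recovery assumes. Intervals came from scipy 1.17.1 and figures from matplotlib 3.10.9, in Python 3.11.15 with numpy 2.4.6 and pandas 2.3.3.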

Additional observations from a re-analysis of the deposited data

Results flagged for a closer look

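In 24 sets of 4 library values, the highest or lowest value was tested for standing apart by Dixon's criterion, which chance meets in about 1 in 20 sets. It was met by 2 sets, both of neural miRNA genes and both in library 3: Mir9-3 at 2861 TPM and Mir219a-2 at 182 TPM, with gaps to the nearest library of 0.89 and 0.91 of the whole range. That rate holds for independent, normally distributed values, whereas the sets share the same 4 libraries and these 2 were in unlogged TPM. The number of sets met also depends on which were examined, so it is not set against chance.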

How the results depend on the processing

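Of 89 values recomputed under other settings, 87 moved by less than 1 SD over libraries, and no mean log2 ratio changed sign. Much of this count was fixed in advance, so it is no measure of robustness. Leaving out 1 of 4 libraries cannot move a mean by 1 SD, and the 1 TPM filter removed no member. Scaling to the miRNA total leaves shares within a family unchanged. Levels, shares and ranks have no direction to reverse. With a pseudocount of 10 TPM the log2 ratio of Mir128-1 to Mir128-2 was 2.18, and from reads not divided by length the share of miR-7 on Mir7-2 was 82.2%, against 83.7% in TPM. Leaving out each library in turn gave 231 to 326 TPM for summed miR-128, 370.0 to 564 TPM for summed miR-7, -0.83 to -0.33 for their log2 ratio, 2.34 to 2.52 for the log2 ratio of Mir128-1 to Mir128-2, and 83.7% to 85.4% and 83.4% to 84.2% for the shares on the higher miR-128 and miR-7 copies. Rescaling each library to the mean miRNA total, an alternative chosen after seeing the data, made Mir7-1 the nearest gene to Mir7-2, put Mir10b in place of Mir218-1 for Mir7-1, moved Mir143 to first for Mir7b, and for Mir128-2 moved Mir411 to first and put Mir541 in place of Mir493. The nearest 3 of Mir128-1 kept their order. A factor shared by all genes of a library cancels in this distance, apart from the effect of the added 1 TPM. These shifts and that kept order are therefore no check against library scaling. No paired analysis was possible because there was 1 group. Library 4, with 146255 miRNA reads, was the shallowest. The 4 libraries limit the precision of every mean, and ligation preferences limit comparison between different miRNAs.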
